A study of Homo sapiens with 10 samples.

Results

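The sites described here are 5980 of the 8941 Smad3 peaks of H441 cells given a control siRNA (siControl), which is 66.9% of that peak list. They were chosen by overlap of at least 1 bp: each of these peaks met a Smad3 peak of cells depleted of TTF-1 by siRNA (siTTF-1), as did 80.8% of the whole list, and a TTF-1 peak at 0 h, as did 87.7%. Peaks that met both the Smad4 list of siTTF-1 cells and the Smad3 list of A549 cells, here called universal sites, were left out. The 5980 sites are called kept sites with TTF-1 below. The remaining siControl peaks were 894 kept sites without TTF-1, 1587 lost sites with TTF-1, 131 lost sites without TTF-1, and 272 universal sites with and 77 without TTF-1. Presence in the Smad3 siTTF-1 and TTF-1 0 h lists, and the absence of sites with both Smad4 and A549 peaks, were therefore fixed by the choice and are no finding.

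The data are ChIP-seq peak lists (chromatin immunoprecipitation with sequencing), each called on 1 library, so the spread between replicates is unknown and no condition has a replicate check. In the order used here, the H441 lists were Smad3 siTTF-1, Smad3 siControl, TTF-1 1.5 h, TTF-1 0 h, Smad4 siTTF-1 and Smad4 siControl, and the A549 list was Smad3 without siRNA. H441 and A549 are established lines of lung adenocarcinoma, labelled TTF-1 positive and negative, and siTTF-1 cells are labelled depleted. The treatment label gives TGF-β3 at 1 ng/ml for 1.5 h to all samples, while 0 h and 1.5 h are the times in the titles of the TTF-1 libraries, and these titles name no siRNA. TTF-1 peaks of depleted cells were not analysed here, so a TTF-1 peak at a kept site is a peak of cells that still had TTF-1, and how much TTF-1 stayed there after siRNA was not measured here. The Smad4 siControl list holds 1 peak, which met 0.0112% of the siControl Smad3 peaks and 0 of the 5980 sites, and it is not used further. Peak lists do not give sequencing depth. Positions are on hg18 and count from 1.

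Smad3 and Smad4 carry the TGF-β signal into the nucleus: receptor-phosphorylated Smad3 binds DNA, usually in a complex with Smad4, the partner common to the Smad pathways. Smads bind DNA weakly on their own and are guided to many sites by the transcription factors of the cell type. TTF-1, also named NKX2-1, is a homeodomain factor that sets the identity of lung epithelium and is a lineage marker of lung adenocarcinoma.

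Kept sites with TTF-1 made up most of the head of the siControl list and a smaller share of its tail. Each list gives its peaks a number starting at 1. The sources used here do not say what the number means, but lower numbers went with wider peaks (Spearman correlation -0.43 across the 5980 sites). In 5 equal strata by peak number, kept sites with TTF-1 were 83.7% of the first stratum (1497 peaks), 79.4% of the second, 66.2% of the third, 58.2% of the fourth and 47.0% of the fifth (840 peaks). Kept sites without TTF-1 were 2.4% of the first stratum and 15.7% of the fifth, and lost sites with TTF-1 were 4.0% and 32.2%. The median siControl width was 649 bp (quartiles 449 and 849) at kept sites with TTF-1, 499 bp at kept sites without TTF-1, 499 bp at lost sites with TTF-1 and 899 bp at universal sites with TTF-1. Among the kept sites with TTF-1 the median width was 799 bp in the first stratum and 499 bp in the fifth.

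**Figure D1:**
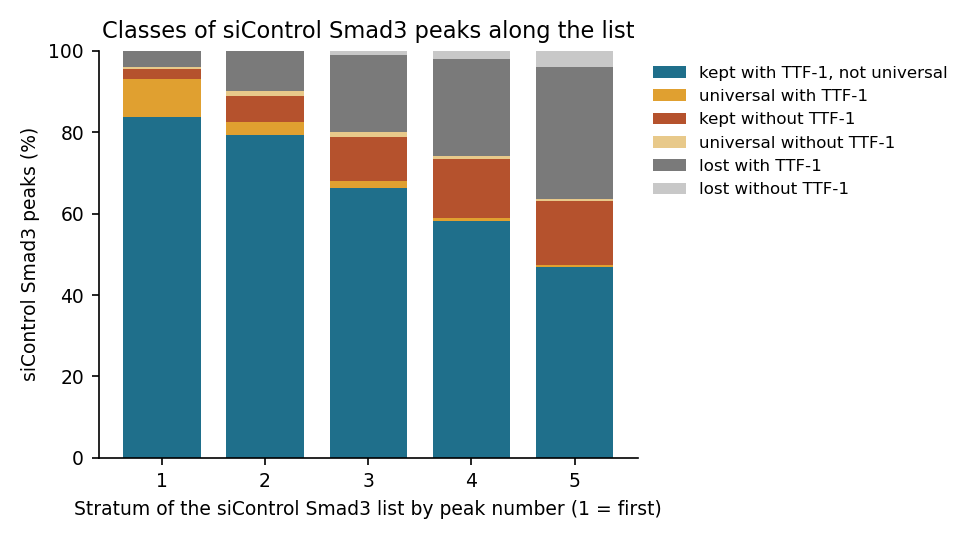
Share of each class of siControl Smad3 peaks (y axis, %) in 5 equal strata of the list by peak number (x axis). The bottom segment, kept sites with TTF-1 that are not universal, takes 83.7% of the first stratum and 47.0% of the fifth.

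The first of these sites by peak number had a peak in each of the 4 H441 Smad3 and TTF-1 libraries. The first, number 2 of the siControl list, lay on chromosome 1. Its Smad3 peak ran from 184423251 to 184425049 in siTTF-1 cells (number 7) and from 184423301 to 184424949 in siControl cells. Its TTF-1 peak was 1599 bp wide at 1.5 h and 1449 bp at 0 h, and a 399 bp A549 peak lay inside it. Number 4, also on chromosome 1, had Smad3 at 59916201 to 59917699 in siTTF-1 cells and at 59916101 to 59917699 in siControl cells. It coincided with TTF-1 peak number 7 at 1.5 h and number 6 at 0 h, and had neither a Smad4 nor an A549 peak.

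The next sites by number lay on chromosomes 3, 8 and 12. On chromosome 3, the Smad3 peak of number 6 was 1299 bp wide in siTTF-1 cells and 1249 bp in siControl cells (65924351 to 65925599), and that of number 9 was 1799 bp and 1999 bp wide (100172551 to 100174549 in siControl cells), with an 849 bp A549 peak. Number 7 on chromosome 8 (124694501 to 124695849) was 1099 bp wide in siTTF-1 cells and 1349 bp in siControl cells, and carried a 449 bp Smad4 peak. Number 8 on chromosome 12 (64336201 to 64337749) was 1149 bp wide in siTTF-1 cells and 1549 bp in siControl cells. Of these 6 peaks, the Smad3 peak was wider in siTTF-1 cells at numbers 2 and 6 and narrower at numbers 4, 7, 8 and 9. All 6 had TTF-1 peaks at both times.

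TTF-1 0 h and Smad3 peaks, which the rule required to overlap, had centres close together at these sites. The centre of the siControl Smad3 peak was a median of 50 bp from the centre of the TTF-1 0 h peak (quartiles 25 and 125 bp), and 4415 of the 5980 sites (73.8%) had the centres within 100 bp. Peak edges lie on steps of 50 bp, so distances of this size are near the resolution of the lists. The median distance was also 50 bp at universal sites with TTF-1 and at lost sites with TTF-1. All these classes were chosen by overlap with a TTF-1 0 h peak, which limits the distance, so closeness is no finding by itself. The peaks differed more in how they nested. The Smad3 peak lay inside a wider TTF-1 peak at 53.7% of the kept sites with TTF-1, against 83.7% of the lost sites with TTF-1 and 26.1% of the universal sites with TTF-1. The reverse, a TTF-1 peak inside a wider Smad3 peak, was found at 24.7% of the kept sites with TTF-1, against 5.80% of the lost sites and 51.1% of the universal sites with TTF-1. TTF-1 0 h peaks had a median width of 749 bp at kept sites, 849 bp at lost sites and 774 bp at universal sites with TTF-1. A single TTF-1 0 h peak was present at 5901 of the kept sites with TTF-1, and 79 had more, up to 3.

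The TTF-1 1.5 h library, which the rule did not use, had a peak at 5425 of the 5980 kept sites with TTF-1 (90.7%, exact Clopper-Pearson 95% interval 89.96 to 91.4). The share was 82.2% of all siControl peaks, but these include sites without a TTF-1 0 h peak and are not like for like. At kept sites without TTF-1 it was 15.7%. The rule required a 0 h peak, and the 0 h and 1.5 h numbers had a Spearman correlation of 0.89 across the 5425 sites. A high 1.5 h share is therefore no finding by itself. The TTF-1 1.5 h library had a peak at 1506 of the 1587 lost sites with TTF-1 (94.9%, 93.7 to 95.9). Kept minus lost, the difference was -4.18 percentage points (-5.42 to -2.79), with an odds ratio of 0.53 (0.41 to 0.67). It passed a two-sided Fisher's exact test, Benjamini-Hochberg adjusted over 4 tests (p = 5.01e-08). Lost sites met earlier peaks of the TTF-1 list: their median TTF-1 0 h peak number was 4311, against 7954 at kept sites. In 5 equal strata of the TTF-1 0 h list the share with a 1.5 h peak, kept then lost, was 99.9% and 100% in the first stratum, 98.5% and 98.3% in the second, 89.3% and 87.0% in the third, 66.0% and 62.0% in the fourth, and 43.8% and 49.1% in the fifth. The kept against lost odds ratio depended on the strata. The Mantel-Haenszel ratio was 1.07 (0.80 to 1.43) within strata of the TTF-1 0 h number and 0.30 (0.23 to 0.38) within strata of the siControl number.

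Universal sites with TTF-1 had a 1.5 h peak at 251 of 272 (92.3%, 88.4 to 95.2). The difference of kept sites with TTF-1 from them, -1.56 percentage points (-4.28 to 2.30), did not pass the test (odds ratio 0.82, 0.52 to 1.29, Fisher's exact test, adjusted p = 0.453). Its direction changed with the strata. The Mantel-Haenszel ratio came to 1.66 (1.03 to 2.66) by siControl number and to 0.46 (0.27 to 0.78) by TTF-1 0 h number. The 555 kept sites without a TTF-1 1.5 h peak had late and narrow TTF-1 0 h peaks, with a median number of 23546 and a median width of 449 bp, against 6917 and 749 bp at the 5425 sites with one. Smad4 peaks were present at 6.13% of the 555 and at 7.12% of the 5425 sites, and A549 peaks at 9.91% of the 555 and 10.4% of the 5425. Where TTF-1 was called at both times its peak was a median of 0 bp wider at 1.5 h than at 0 h (quartiles -100 and 50 bp), narrower at 48.5% and wider at 31.5% of the sites.

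**Figure D2:**
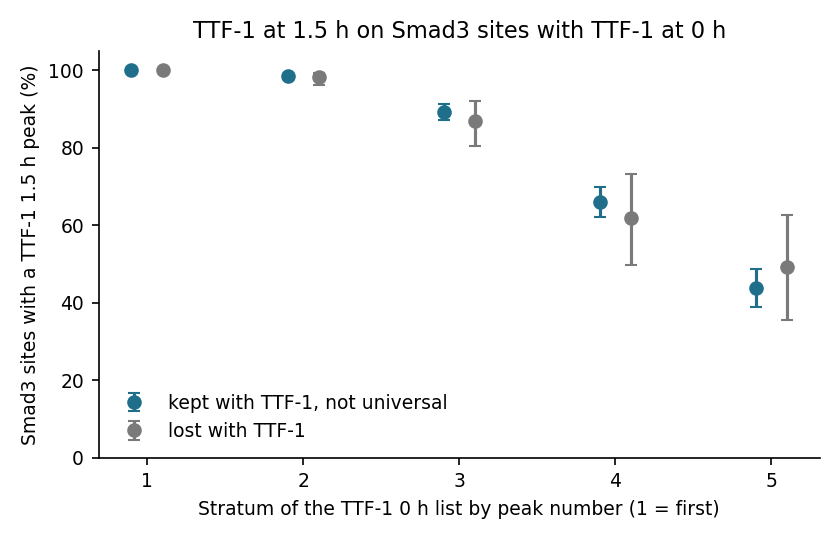
Percentage of sites where TTF-1 was called at 1.5 h (y axis) by stratum of the TTF-1 0 h peak they carry (x axis), for kept sites with TTF-1 and lost sites with TTF-1. Bars are exact 95% intervals. The intervals of both classes overlap in each stratum, with shares of 99.9% and 100% in the first and 43.8% and 49.1% in the fifth.

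At these sites, chosen for overlap with a siTTF-1 Smad3 peak, the Smad3 centres of both conditions lay close together and the median width was the same. The Smad3 centre of siTTF-1 cells lay a median of 25 bp from that of siControl cells, within 100 bp at 4947 sites (82.7%) and more than 200 bp away at 423 (7.1%). The overlap required by the rule limits this shift. Kept sites without TTF-1, chosen by the same overlap, also had a median of 25 bp, with 81.4% within 100 bp. Nearly every site, 5931 of 5980, had a single siTTF-1 peak. The median width was 649 bp in siTTF-1 cells and 649 bp in siControl cells, and the median difference was 0 bp (quartiles -50 and 100 bp). The siTTF-1 peak was wider at 2914 sites (48.7%), narrower at 2087 (34.9%, 33.7 to 36.1) and as wide at 979. Over all 7223 kept siControl peaks, 53.1% were wider and 31.4% narrower. At the 894 kept sites without TTF-1 the median width was 649 bp in siTTF-1 cells and 499 bp in siControl cells, and 668 (74.7%, 71.7 to 77.5) were wider and 125 (14.0%) narrower. A high share was not limited to sites without TTF-1. At the 272 universal sites with TTF-1, 71.0% (65.2 to 76.3) were wider, with a median difference of 100 bp. Within each of the 5 strata of the siControl number the share of wider peaks was lower at kept sites with TTF-1: 40.5% against 69.8% at kept sites without TTF-1 in the first stratum, and 58.3% against 78.6% in the fifth. These shares describe 1 library of each condition and were not tested.

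**Figure D3:**
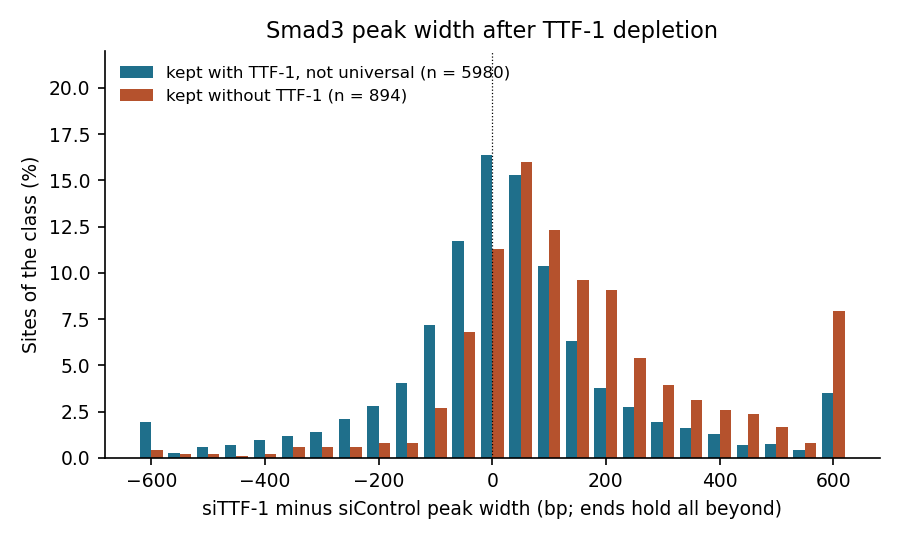
Distribution of the siTTF-1 minus siControl Smad3 peak width (x axis, bp, in steps of 50; the end bars hold all values beyond) as a share of each class (y axis, %). Kept sites with TTF-1 centre on 0 bp, and kept sites without TTF-1 are shifted to wider siTTF-1 peaks, with a median of 100 bp.

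How the Smad3 peak differed after depletion went with the position of the TTF-1 peak in its own list. Of the 2518 kept sites whose TTF-1 0 h peak stood in the first stratum of that list, 36.3% (34.4 to 38.2) had a wider and 46.8% (44.8 to 48.8) a narrower Smad3 peak in siTTF-1 cells. The wider share was 51.7% of 1500 sites in the second stratum, 60.3% of 968 in the third, 64.0% of 592 in the fourth and 65.2% of 402 in the fifth, where 19.7% were narrower. Put as levels, the median Smad3 width in siTTF-1 cells was 649 bp in each of the 5 TTF-1 strata, while in siControl cells it was 699 bp in the first, 649 bp in the second, 599 bp in the third and a further 50 bp lower in the fourth and in the fifth. At universal sites with TTF-1 the wider share was 61.2% of 103 in the first TTF-1 stratum and 85.7% of 28 in the fifth. These widths cover kept sites only. Lost sites with TTF-1, which have no siTTF-1 peak to compare, numbered 969 in the first stratum and 57 in the fifth.

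The siControl peak number moves with the TTF-1 number, with medians of 2327.5 in the first and 5733 in the fifth TTF-1 stratum, so the shares were also taken within siControl strata. In the first siControl stratum 33.2% of the 1027 sites with a first-stratum TTF-1 peak were wider after depletion, 58.8% of the 34 sites with a fifth-stratum TTF-1 peak, and 69.8% of the 43 kept sites without TTF-1. In the fifth siControl stratum the same shares were 44.1% of 145, 69.1% of 110 and 78.6% of 280. Within strata of the siTTF-1 number the share was also lower at first-stratum TTF-1 peaks than at sites without TTF-1, with 50.4% against 91.1% in the first siTTF-1 stratum and 12.0% against 37.8% in the fifth.

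**Figure D4:**
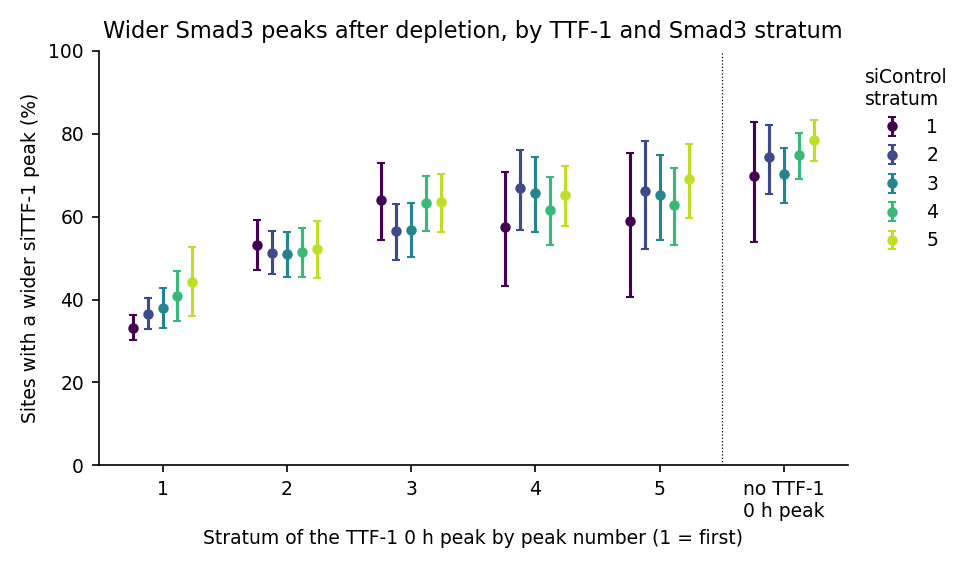
Share of sites whose Smad3 peak was wider in siTTF-1 than in siControl cells (y axis, %) by stratum of the TTF-1 0 h peak number, with kept sites without a TTF-1 0 h peak at the right (x axis). Colours are strata of the siControl number and bars are exact 95% intervals. The share lies between 33.2% and 44.1% where the TTF-1 peak is in the first stratum and between 69.8% and 78.6% where there is none.

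The order of the siControl Smad3 peaks went with the order of TTF-1 peaks, and that of the siTTF-1 Smad3 peaks much less. The TTF-1 peaks were the same in both comparisons. Across the 5980 sites the Spearman correlation of the TTF-1 0 h number was 0.06 with the siTTF-1 Smad3 number and 0.44 with the siControl Smad3 number. With the TTF-1 1.5 h number, over 5425 sites, these were 0.10 and 0.45. For peak widths the correlations with the TTF-1 0 h width were 0.38 in siTTF-1 cells and 0.57 in siControl cells. At the 272 universal sites with TTF-1 the number gave 0.23 and 0.49. The siTTF-1 and siControl Smad3 numbers of the 5980 sites correlated at 0.60. These are descriptions across sites that share the same libraries. All the sites were called in each of the lists compared, and no test was made of the difference.

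The Smad3 centre lay farther from the TTF-1 0 h centre in siTTF-1 than in siControl cells at 2646 sites (44.2%, 43.0 to 45.5), nearer at 1932 (32.3%, 31.1 to 33.5) and equally far at 1402. Against the TTF-1 1.5 h centre the shares were 43.6% and 32.8% of 5425 sites. The median distance was 50 bp in both conditions, the size of 1 step of the lists. The rule required overlap with the TTF-1 0 h peak of the siControl peak only, although the siTTF-1 peak overlapped one at 5975 of the 5980 sites. How far this sets the difference was not tested. At universal sites with TTF-1 the shares were 45.2% (39.2 to 51.3) and 38.2% (32.4 to 44.3).

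Smad4 and A549 Smad3 peaks were each present at a minority of the sites. Because sites with both had been left out, 420 sites (7.0%, 6.4 to 7.7) had a Smad4 siTTF-1 peak alone, 618 (10.3%, 9.6 to 11.1) an A549 peak alone and 4942 neither. Of all siControl peaks, 10.1% had a Smad4 and 11.9% an A549 peak, but these shares include universal sites and are not like for like. With universal sites put back, kept sites with TTF-1 had Smad4 at 11.1% and A549 at 14.2%. With the same exclusion, Smad4 was present at 127 of the 894 kept sites without TTF-1 (14.2%, 12.0 to 16.7). The difference, with minus without TTF-1, was -7.18 percentage points (-9.70 to -4.94). The odds ratio was 0.46 (0.37 to 0.56), and it passed Fisher's exact test (adjusted p = 2.97e-11). The rule itself used the Smad4, A549 and TTF-1 0 h lists, and the units of the test were peaks, not replicates. It therefore describes these lists only. The Smad4 list and the Smad3 list that defines a kept site come from siTTF-1 cells in both classes. With universal sites put back into both classes the shares were 11.1% (692 of 6252) with TTF-1 and 21.0% (204 of 971) without, and the odds ratio was 0.47 (0.39 to 0.56). For A549 the shares were 10.3% at kept sites with TTF-1 and 9.2% (7.4 to 11.3) at kept sites without TTF-1. This difference, 1.16 percentage points (-1.04 to 3.06), did not pass the test (odds ratio 1.14, 0.90 to 1.45, Fisher's exact test, adjusted p = 0.418). With universal sites in both classes, the A549 odds ratio was 0.85 (0.71 to 1.02).

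Smad4 was less frequent at kept sites with TTF-1 in each stratum of the siControl list, with a Mantel-Haenszel odds ratio of 0.30 (0.24 to 0.38) within strata. Within strata of the siTTF-1 number, a setting added after seeing the data, the ratio was 0.45 (0.36 to 0.56). In the first siControl stratum 13.5% (11.8 to 15.3) of the 1497 kept sites with TTF-1 had Smad4, against 37.2% (23.0 to 53.3) of the 43 kept sites without TTF-1. In the second the shares were 6.20% against 26.5%, and in the third 4.06% against 16.9%. In the fourth and the fifth stratum the shares were 4.7% and 3.9% at kept sites with TTF-1, against 8.49% and 8.93% without TTF-1. A549 peaks at kept sites with TTF-1 were 15.7% in the first stratum and 6.9% in the fifth.

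**Figure D5:**
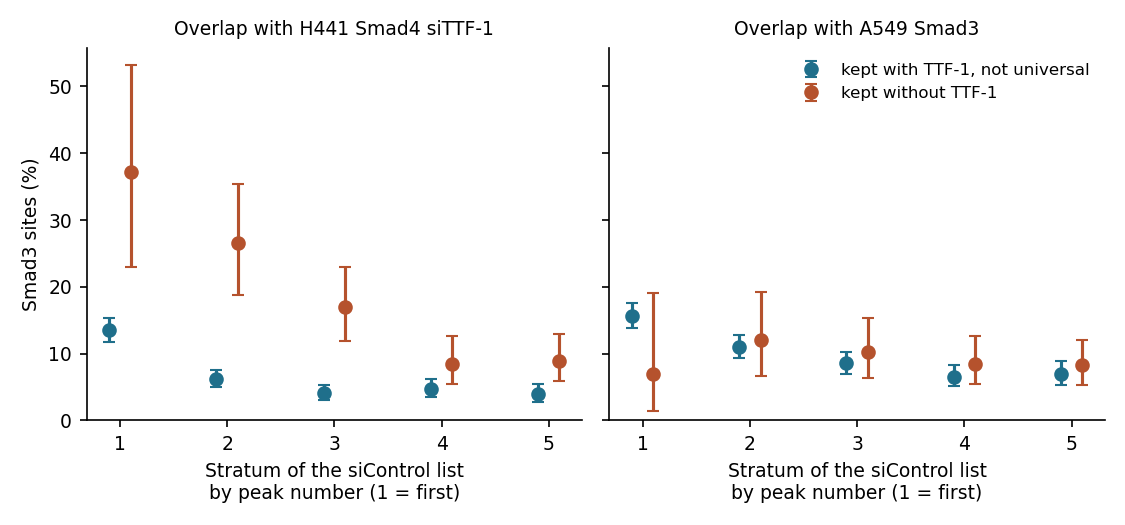
Share of sites (y axis, %) with a Smad4 siTTF-1 peak (left) and with an A549 Smad3 peak (right), by stratum of the siControl number (x axis), for kept sites with TTF-1 and kept sites without TTF-1, universal sites left out of both. Bars are exact 95% intervals; for Smad4 the first stratum has 13.5% against 37.2%, and for A549 the intervals of both classes overlap in each stratum.

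Kept sites with TTF-1 that carried either of these peaks had Smad3 peaks that were wide already. The median Smad3 width at the 420 sites with Smad4 was 874 bp in siTTF-1 cells and 799 bp in siControl cells, and 66.2% (61.4 to 70.7) were wider in siTTF-1 cells. At the 618 sites with A549 the medians were 849 bp and 799 bp, and 57.1% were wider. At the 4942 sites with neither, the medians were 599 bp and 599 bp, and 46.2% (44.8 to 47.6) were wider. Smad4 peaks at these sites had a median width of 299 bp. Their centres lay a median of 100 bp from the Smad3 centre of siTTF-1 cells, 100 bp from that of siControl cells and 125 bp from the TTF-1 0 h centre. A549 centres lay a median of 100 bp from each of these centres.

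The first sites with Smad4 by siControl number were number 7 on chromosome 8, described above, number 24 on chromosome 20 and number 38 on chromosome 4. Number 24 had peaks of the same 1149 bp width for Smad3 in siTTF-1 cells (50540201 to 50541349), Smad3 in siControl cells (50540151 to 50541299) and TTF-1 at both times, with Smad4 at 50540451 to 50540799. Number 38 had Smad3 at 114496251 to 114497449 in siTTF-1 cells, the same edges as its TTF-1 0 h peak, and at 114496251 to 114497199 in siControl cells. The first sites with an A549 peak were numbers 2 and 9 above and number 14 on chromosome 17. There Smad3 had the same edges in siTTF-1 and siControl cells (35931251 to 35931999), and the A549 peak lay inside them, at 35931351 to 35931899.

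The 5 widest sites spanned 3949 to 6699 bp in siControl cells. Of these 5 sites, 3 stood side by side on chromosome 14, at 36045201 to 36050699 (5499 bp), 36050751 to 36054699 (3949 bp) and 36054751 to 36061449 (6699 bp), over 2 TTF-1 0 h peaks each. In siTTF-1 cells each met several peaks: the 5499 bp and 6699 bp peaks met 3 siTTF-1 peaks each and the 3949 bp peak 2. The siTTF-1 peak with the largest overlap was 2999 bp wide at the first of these, 1899 bp at the second and 2249 bp at the third. The siTTF-1 minus siControl difference in width was -2500 bp at the first, -2050 bp at the second and -4450 bp at the third. None of the 3 had a Smad4 or A549 peak. The other two were on chromosome 12 (12761501 to 12767499), where a 5999 bp siControl peak met a single siTTF-1 peak of 449 bp, the largest loss of width, and on chromosome 11 (65021451 to 65027299). The 3 largest losses were the chromosome 12 site and the 6699 bp and 5499 bp peaks of chromosome 14.

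On chromosome 11 the change ran the other way. A single siTTF-1 peak of 10599 bp (65021451 to 65032049) met the siControl peaks at 65021451 to 65027299 (5849 bp), at 65027351 to 65028699 (1349 bp) and at 65031151 to 65032099 (949 bp). The last of these had the largest gain of width, 9650 bp, followed by the 1349 bp peak with 9250 bp. The third was a 999 bp siControl peak on chromosome 3 (4996951 to 4997949) inside an 8049 bp siTTF-1 peak. The chromosome 11 gains are thus of siControl peaks that share a siTTF-1 peak. In all, 116 of the 5980 sites had a siTTF-1 peak that also met another siControl peak. TTF-1 0 h peaks at the 3 gains had late numbers, from 18925 to 29096, and none of these sites had a TTF-1 1.5 h peak.

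Sites near the limits of the rule were few. The smallest overlaps with a TTF-1 0 h peak were 49 bp on chromosome 12 and 99 bp on chromosome 3, and 6 sites shared the next value, 149 bp. Just outside, the nearest kept siControl peaks without TTF-1 missed a TTF-1 0 h peak by 1 and 51 bp, both on chromosome 2, and 7 shared the next gap, 101 bp. The smallest overlap with a siTTF-1 Smad3 peak was 149 bp, on chromosome 1, and 32 sites shared the next value, 199 bp. The 3 nearest peaks outside missed one by 1 bp, on chromosomes 1, 8 and 11. The siTTF-1 peak itself overlapped a TTF-1 0 h peak at all but 5 of the 5980 sites.

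Seen from the other lists, the sites covered a part of each. A kept site with TTF-1 was present at 5979 of the 14145 siTTF-1 Smad3 peaks (42.3%), at 25.4% of the 21291 TTF-1 1.5 h peaks and at 19.3% of the 31083 TTF-1 0 h peaks. Any siControl peak was present at 50.9%, 34.3% and 25.1% of these lists, in the same order. In the TTF-1 1.5 h list the share with a kept site with TTF-1 was 45.6% of the first stratum and 9.98% of the fifth, and in the 0 h list 39.8% and 7.0%. The share with any siControl peak fell along the lists too, from 65.8% to 13.9% at 1.5 h and from 56.3% to 8.4% at 0 h. Of the 1605 Smad4 siTTF-1 peaks 422 (26.3%) met a kept site with TTF-1, and of the 2535 A549 peaks 627 (24.7%). Any siControl peak was met by 56.6% of the Smad4 and 42.5% of the A549 peaks.

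The sites lay on all chromosomes with siControl peaks, from 62.0% of these peaks on chromosome 9 (56.8 to 67.0) to 72.8% on chromosome 21 (63.2 to 81.1), intervals that overlap. The median distance to the centre of the nearest other kept site with TTF-1 was 41575 bp, and 1712 sites (28.6%) had one within 10 kb. Linked at 10 kb, 496 sites fell into 154 groups of 3 or more. The largest, on chromosome 22 (35090901 to 35112949), held 7 sites in 22049 bp, 2 of them with Smad4. By windows of 1 Mb the sites were densest on chromosome 10 from 3000001 to 4000000, where they were 20 of 22 siControl peaks, on chromosome 8 from 124000001 (16 of 17) and on chromosome 1 from 59000001 (15 of 19, as many as in a window of chromosome 21). A lost siControl peak lay within 10 kb of 432 sites (7.2%), and a siTTF-1 Smad3 peak with no siControl counterpart within 10 kb of 1215 (20.3%).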

How the data were processed

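The authors deposited peak lists of 7 of the 10 samples, on hg18 per the submitters' processing notes; 3 samples are input DNA and were not analysed here. Per the labels, the false discovery rate limit was 10% for Smad4, 5% for A549 Smad3 and 1% for the other H441 lists, and 3 further lists are subsets chosen by presence or absence of overlap. The sources used here do not name the peak caller. The deposited score was 1000 for each peak and was not used. 1 track line was skipped, and 1 was added to each start.

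Overlap needed 1 bp, and with several peaks the one with the largest overlap was the partner. Shares have exact Clopper-Pearson 95% intervals; 4 comparisons used Fisher's exact test with Woolf intervals and Benjamini-Hochberg adjustment (threshold 0.05), with Newcombe intervals of differences. Peaks are not replicates: tests describe these lists, and intervals cover counting error only. Site classes, lists and named-peak rules (first by number, widest, first with Smad4 or A549, largest width changes, nearest the limits, densest windows) were chosen with earlier results of these data known. The chromosome 22 group, the width comparisons by TTF-1 stratum and the number correlations were chosen after seeing values. The code was tested on simulated data and against bedtools 2.31.1. Tools were SciPy 1.17.1 and NumPy 2.4.6 under Python 3.11.15, statsmodels 0.14.6, and matplotlib 3.10.9 for figures. No hg18 genome or annotation was used here, so peaks have no gene, motif or sequence.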

Additional observations from a re-analysis of the deposited data

How the results depend on the processing

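The Smad4 odds ratio between kept sites with and without TTF-1 was below 1 and past the threshold under each alternative run, from 0.28 (50% of the peak covered) to 0.69 (TTF-1 1.5 h list in the rule). The 1.5 h odds ratio against lost sites turned to 1.01 with centres within 200 bp, to 1.50 with shortened lists and to 1.07 within strata of the TTF-1 0 h number, which was added after seeing the data. It was further below 1 at 0.30 within strata of the siControl number and 0.25 in the first 50% of the list, both past the threshold. Against universal sites it turned to 1.60 in the first 50% of the list, 2.79 with shortened lists, 1.66 within strata of siControl number and 1.06 within strata of width. It passed the threshold in opposite directions at 1.66 and, within strata of the TTF-1 0 h number, at 0.46. The A549 odds ratio turned to 0.85 with 50% of the peak covered, 0.96 with shortened lists, 0.89 and 0.90 within strata of number and width, and 0.85 with universal sites in both classes. The number of sites was 3277 in the wider 50%, 3536 in the first 50% and 2648 with shortened lists, since fewer peaks entered. The causes of these changes were not tested. Of the 48 alternative values of the 4 tests, 35 kept their direction and side of the threshold. The Spearman correlation of the TTF-1 number lay between -0.09 and 0.11 for the siTTF-1 and between 0.35 and 0.47 for the siControl Smad3 number over the list-based alternatives. Windows for motifs and genes were not run, since no hg18 genome was used here. No paired analysis was possible because each condition had 1 library. A site called in one list and not in another may lie just under a calling limit, and the limits differ between lists.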
